A study of Rattus norvegicus with 6 samples.

Results

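The Notch genes described here are 3 receptors (Notch1, Notch2 and Notch3), 4 ligands (Jag1, Jag2, Dll1 and Dll4) and 3 target genes (Hes1, Hey1 and Hey2). They were measured in neonatal rat ovaries on single-colour Agilent arrays. Members were taken as every non-control probe whose RefSeq accession belongs to 1 of these 10 genes. This gave 12 probes for 9 genes, out of 30367 probes and 15154 named genes. Jag2 had no matched probe and is not described further. The study compared female Wistar pups injected intraperitoneally with LPS, a cell wall component of Gram-negative bacteria, or with the same volume of saline. The LPS came from Salmonella enterica and was given at 0.05 mg/kg. Both treatments fell on postnatal day (PND) 3 and again on PND 5. Whole ovaries were collected on PND 7, with 3 arrays per treatment. Whole litters had been allocated to a treatment, so litter and treatment cannot be told apart. Which animals contributed to which array is not given in the sources used here. The study drew the animals of a treatment from fewer litters than there are arrays, so the arrays of a treatment are not independent by litter, and p-values measure the spread between these arrays.

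Notch receptors are membrane proteins that are cut after binding a ligand on a neighbouring cell. The released intracellular part enters the nucleus and joins the DNA-binding protein Rbpj to switch on target genes, of which the Hes and Hey transcriptional repressors are the best known. In the perinatal rodent ovary the pathway is known for its part in the breakdown of germ cell nests into primordial follicles, with Jag1 made mainly by oocytes and Notch2 by the surrounding pregranulosa cells. Dll4 and Notch1 are also known from endothelium and Notch3 from pericytes and vascular smooth muscle.

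Levels are log2 processed signals relative to the 75th percentile of the same array, so that 0 is the signal of a probe at that percentile and a difference of 1 is 2-fold. Levels of different probes are not set against each other. The 6 arrays came from 1 slide and 1 scan, and between 66.3% and 76.0% of probes on an array carried the scanner software's flag for a signal well above background. Such a probe is called detected below. LPS replicate 1 and all saline arrays lay in slide row 2, and LPS replicates 2 and 3 in row 1. Saline replicates 2 and 3 stood apart from the other arrays. The summed level of 9 adrenal cortex markers, in units of the 75th percentile, was 301 and 397 on these arrays against 7.33 on saline replicate 1 and 6.25 to 19.0 on the LPS arrays. The summed level of 9 adrenal medulla markers was likewise 89.8 and 58.1 against 5.97 and 3.15 to 5.57. Such sums, here and below, add levels on the linear scale, so the probes of highest signal weigh most. Col1a1 in the stroma and theca list, Hbb in the red blood cell list and Zp3 in the oocyte list are examples. The labelled tissue was checked against its defining cells: 10 of 10 measured oocyte markers and 9 of 10 measured granulosa cell markers were detected on all 6 arrays.

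The exploratory question was whether transcripts of the Notch pathway differed between LPS-treated and saline-treated ovaries on PND 7. No member met the criterion of an at least 2-fold difference at an unadjusted p under 0.05, at which 1.69% of all probes were called (0.613% higher and 1.08% lower after LPS). No member, and 0% of all probes, had an adjusted p under 0.05 by limma with Benjamini-Hochberg adjustment over all probes. Of the 12 member probes, the brightest Hey2 probe (higher) and a dim Dll4 probe (lower, limma unadjusted p = 0.0231) had an unadjusted p under 0.05, as had 16.5% of all probes (2.46% higher and 14.1% lower). The groups did not overlap on the brightest probes of Hey1 and Hey2, which were higher after LPS, and on a dim probe of Dll4, which was lower. Such a separation was seen for 23.4% of all probes, 5.02% with LPS higher and 18.4% with LPS lower. Among the 17585 probes detected on all arrays the shares were 5.53% and 5.87%. Of the 9 genes, 8 had a positive difference (LPS minus saline), and the median difference was 0.24 on the log2 scale. Over all probes 44.8% of differences were positive and the median was -0.04, and over the probes detected on all arrays 53.6% were positive and the median was 0.02. The smallest p of an exact permutation test over 3 arrays against 3 is 0.1.

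**Figure D1:**
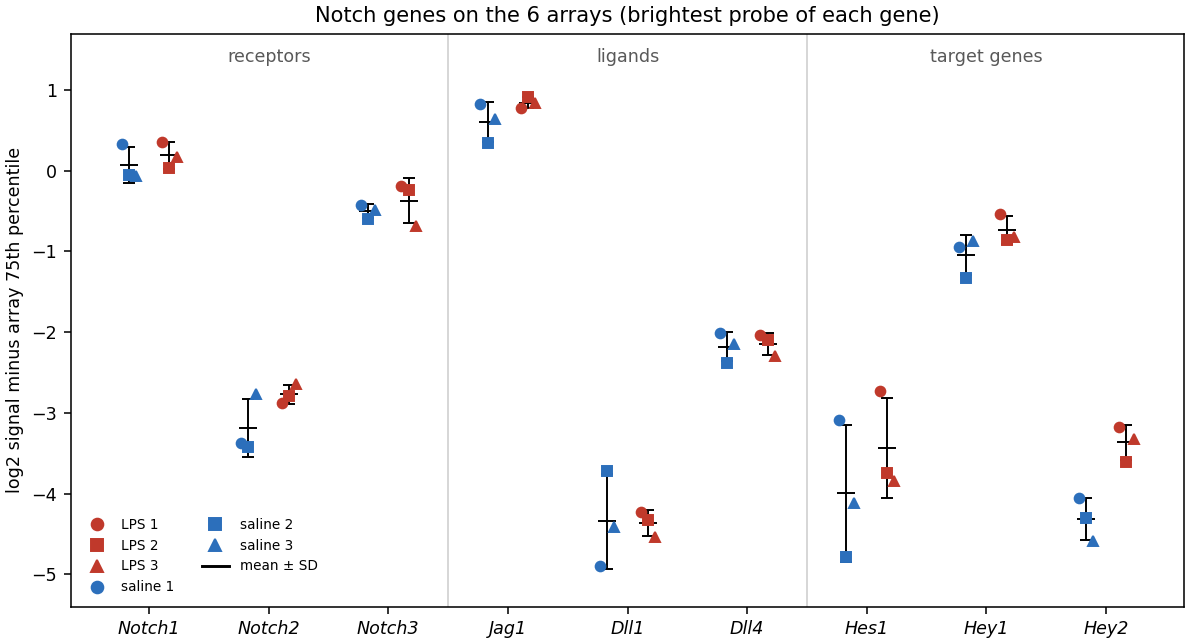
Levels of the 9 Notch genes with a matched probe, for 3 saline (blue) and 3 LPS (red) arrays. The y axis is in log2 units relative to the 75th percentile of each array. Black bars are the mean ± SD. The groups are apart for Hey1 and Hey2 and overlap for the other genes, and Hes1 is highest on replicate 1 of both treatments.

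The receptor transcripts showed small differences. Notch1 was measured at 0.36, 0.04 and 0.16 on LPS replicates 1, 2 and 3 and at 0.33, -0.05 and -0.07 on saline replicates 1, 2 and 3. Replicate 1 was the highest array of both treatments, and the groups overlapped. The difference was 0.12 ± 0.19 (log2, SE, n = 3 per treatment; limma adjusted p = 0.910), with a 95% confidence interval from -0.34 to 0.58. Another Notch1 probe, also detected on all arrays, gave a difference of -0.04 (SE 0.24, limma adjusted p = 0.992). Notch2, the pregranulosa cell receptor, was at -2.88, -2.79 and -2.64 after LPS and at -3.37, -3.42 and -2.77 after saline. Saline replicate 3 lay among the LPS arrays, while the other saline arrays lay below them. The Notch2 difference was 0.42 ± 0.23 (limma adjusted p = 0.438), with an interval from -0.12 to 0.96. Notch3 was at -0.19, -0.24 and -0.68 after LPS and at -0.42, -0.60 and -0.48 after saline, so that LPS replicate 3 was the lowest of all 6 arrays. Its difference was 0.13 ± 0.20 (limma adjusted p = 0.893), with an interval from -0.34 to 0.60. Each of these receptor intervals ended below a 2-fold difference in either direction.

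Of the ligands, Jag1 is the one made by oocytes in the nest. It was at 0.78, 0.92 and 0.83 after LPS and at 0.83, 0.34 and 0.64 after saline. The LPS arrays were close together, and saline replicate 1 lay at their level. The difference was 0.24 ± 0.19 (limma adjusted p = 0.670), with an interval from -0.21 to 0.68. Dll4, the endothelial ligand, was at -2.04, -2.09 and -2.30 after LPS and at -2.02, -2.38 and -2.14 after saline. The groups overlapped throughout, and the difference was 0.03 ± 0.18 (limma adjusted p = 0.988), with an interval from -0.39 to 0.46. Another Dll4 probe was detected on no array, and no fold change is given for it. Its groups were apart in the opposite direction, a sign shared with most of the 8023 probes detected on no array, of which 13.4% had a positive difference and whose median difference was -0.57. Dll1 was at -4.23, -4.33 and -4.54 after LPS and at -4.89, -3.72 and -4.41 after saline, and was detected on all LPS arrays but on only 1 of the 3 saline arrays. Saline arrays were both the highest and the lowest for Dll1, and the difference was -0.02 ± 0.31 (limma adjusted p = 0.996), with an interval from -0.76 to 0.72.

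The target genes had larger differences, with a median of 0.56 over the 3 genes against 0.13 over the 3 receptors and 0.03 over the 3 measured ligands. Whether these role groups differed from each other was not tested. The Hes and Hey genes are textbook readouts of Notch activity, and their promoters hold sites for Rbpj, whose core motif is TGGGAA. The 250 bases before the annotated start of Hes1 and of Hey2 (RefSeq, build GRCr8) are shown because Hes1 is the classical target and Hey2 is the member with the largest difference. They are written 5′ to 3′ in the direction of the gene, with the motif, or its reverse complement TTCCCA, in capitals. The Hes1 window lies at chr11:84213046-84213295 on the minus strand and the Hey2 window at chr1:28640850-28641099 on the plus strand.
Hes1: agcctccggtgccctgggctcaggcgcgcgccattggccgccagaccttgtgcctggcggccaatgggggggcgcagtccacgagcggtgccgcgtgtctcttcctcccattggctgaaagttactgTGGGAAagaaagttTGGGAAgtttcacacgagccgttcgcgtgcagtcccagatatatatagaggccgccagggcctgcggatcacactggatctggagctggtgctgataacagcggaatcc
Hey2: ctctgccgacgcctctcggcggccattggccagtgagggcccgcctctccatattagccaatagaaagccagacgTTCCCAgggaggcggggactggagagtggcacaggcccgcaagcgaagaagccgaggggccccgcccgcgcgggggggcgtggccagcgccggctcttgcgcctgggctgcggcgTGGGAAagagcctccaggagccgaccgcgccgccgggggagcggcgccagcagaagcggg

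In the Hes1 window the motif occurs 2 times on the strand of the gene, at positions -123 to -118 and -109 to -104 from the start, with 8 bases between them. In the Hey2 window it occurs 1 time as the reverse complement, at -175 to -170, and 1 time on the strand of the gene, at -60 to -55, with 109 bases between them. Of the 8 member genes with a promoter in the reference table, Dll1 was the only other gene to hold the motif, at -185 to -180 as the reverse complement and at -82 to -77 on the strand of the gene. Hey1 and Dll4 had no entry. A search of both strands found the motif in 22.1% of all 33469 promoter windows of this length, and at least 2 copies in 2.71%. Of the other pathway genes described below, 15 of the 49 with a promoter in the reference table held the motif, and 5 held at least 2 copies. The window of Nrarp, a feedback gene of that list, held no copy. These matches describe the letters of the windows, and no binding was measured.

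Hey2, a repressor known from cardiovascular development and from granulosa cells, was at -3.17, -3.61 and -3.32 on LPS replicates 1, 2 and 3. It was at -4.05, -4.31 and -4.58 on saline replicates 1, 2 and 3. All 3 LPS arrays were above all 3 saline arrays. The mean level was -3.37 ± 0.22 (SD, n = 3) after LPS and -4.31 ± 0.26 (SD, n = 3) after saline. The difference was 0.95 ± 0.21 (log2, SE), a 1.93-fold higher signal, with a 95% confidence interval from 0.44 to 1.46. The unadjusted p in limma was 0.00338, the adjusted p was 0.271, and the two-sided exact permutation p was 0.1. The probe was detected on all LPS arrays and on 1 of the 3 saline arrays. Within slide row 2, LPS replicate 1 was 1.14 above the mean of the saline arrays. Without saline replicates 2 and 3, which carry the adrenal transcripts, the difference was 0.69 (limma unadjusted p = 0.0714). That fit, here and for the genes below, leaves 1 saline array, which is assumed to vary like the LPS arrays.

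The Hey2 value moved with the background correction. It was 0.35 (limma unadjusted p = 0.0423) with normexp and 0.18 (limma unadjusted p = 0.219) with no background correction. Another Hey2 probe was detected on no array, at -4.70 on LPS replicate 1 and between -7.59 and -6.39 on the other arrays, and the median over both probes gave a difference of 0.53 (limma unadjusted p = 0.243). Leaving out LPS replicate 2 or saline replicate 1 took the main probe past 2-fold, to 1.07 and 1.08. With no normalization between arrays Hey2 was likewise past 2-fold, at 1.32. Hey2 is also in the gene list that the study chose on these same arrays, so its direction here is no independent evidence. That list asked for at least 2-fold, which the main fit here did not reach for Hey2.

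Hey1, the close relative of Hey2, was at -0.53, -0.85 and -0.82 after LPS and at -0.94, -1.33 and -0.87 after saline. The groups did not overlap, but the gap between LPS replicate 2 and saline replicate 3 was smaller than the spread within either group. The difference was 0.31 ± 0.20 (limma unadjusted p = 0.167, adjusted p = 0.557), with an interval from -0.17 to 0.79. Hes1, whose window is printed above, was at -2.72, -3.74 and -3.85 after LPS and at -3.09, -4.79 and -4.11 after saline. The groups overlapped, and replicate 1 was clearly the highest array of each treatment. The Hes1 difference was 0.56 ± 0.49 (limma adjusted p = 0.733), and its interval from -0.62 to 1.74 held both no difference and more than 2-fold. Each LPS array was above the saline array of the same number. With the replicate number as a block the limma unadjusted p was 0.0514 (adjusted p = 0.244). No source used here pairs the arrays. The block, here and for the genes below, rests only on correlations between arrays in these same data, so its p-values are descriptive.

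The summed level of 9 oviduct and epithelial markers was also highest on replicate 1 of both treatments. It was 58.3, 35.7 and 34.1 on LPS replicates 1, 2 and 3 and 55.9, 22.3 and 30.2 on saline replicates 1, 2 and 3. Their part in the Hes1 values was not tested. Without saline replicates 2 and 3 the Hes1 difference turned to -0.35, and that of Notch1 to -0.14. In all, the intervals of 7 of the 9 members lay within a 2-fold difference in either direction, the exceptions being Hes1 and Hey2.

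**Figure D2:**
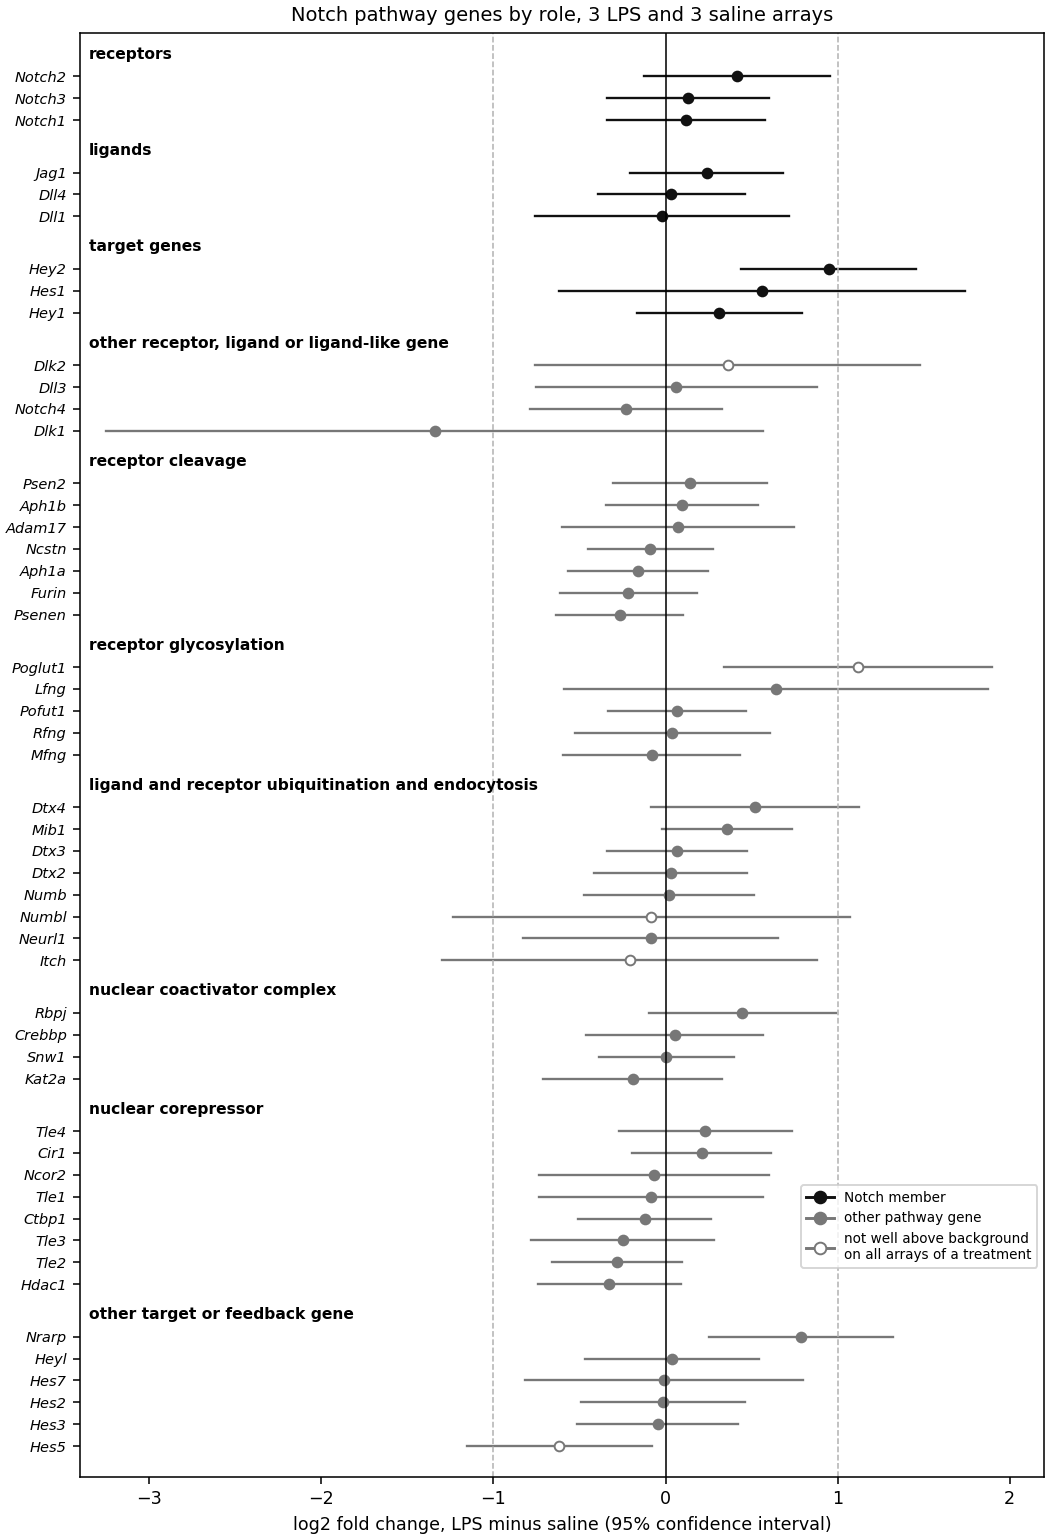
Log2 fold change (LPS minus saline, x axis) with its 95% confidence interval for 9 Notch members (black) and 42 other pathway genes (grey), grouped by role; open symbols mark probes that were not detected (well above background) on every array of a treatment, and dashed lines mark 2-fold. The intervals of Hey2, Nrarp and Poglut1 lie above 0 and that of Hes5 below 0.

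The other genes of the pathway were taken from a list of 55, of which 42 had a probe matched through a RefSeq accession. The other 13 were not matched in this way. No other matching was tried, so the array may hold probes for them. Poglut1 was called higher by the 2-fold and unadjusted p criterion and no gene was called lower, against the 1.69% of all probes given above. Of the 42 genes, 21 had a positive and 21 a negative difference, with a median of -0.0029. The groups were apart for 3 genes with LPS higher (Nrarp, Poglut1 and the ubiquitin ligase Mib1) and for 6 with LPS lower. The shares were 5.02% and 18.4% of all probes, and 5.53% and 5.87% of those detected on all 6 arrays. Detection on all 6 arrays held for 33 of the 42 genes. Mib1 was detected on every LPS array but on no saline array. The intervals of 33 genes lay within 2-fold in either direction.

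Among the other target and feedback genes, Nrarp had the largest difference. It encodes a small ankyrin repeat protein that is induced by Notch and dampens the signal. Its level was -1.03, -1.0 and -0.94 after LPS and -2.21, -1.64 and -1.50 after saline. The LPS arrays were tightly grouped, and every saline array lay below them. The difference was 0.79 ± 0.22 (limma unadjusted p = 0.0107, adjusted p = 0.271), a 1.73-fold higher signal, with an interval from 0.25 to 1.32, and the probe was detected on all 6 arrays. Within slide row 2, LPS replicate 1 was 0.75 above the saline mean, and without saline replicates 2 and 3 the difference was 1.21. The remaining 5 measured genes of this role were Hes2, Hes3, Hes5, Hes7 and Heyl, and none of them was called. Hes5, another classical Notch target, was detected on no array.

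**Figure D3:**
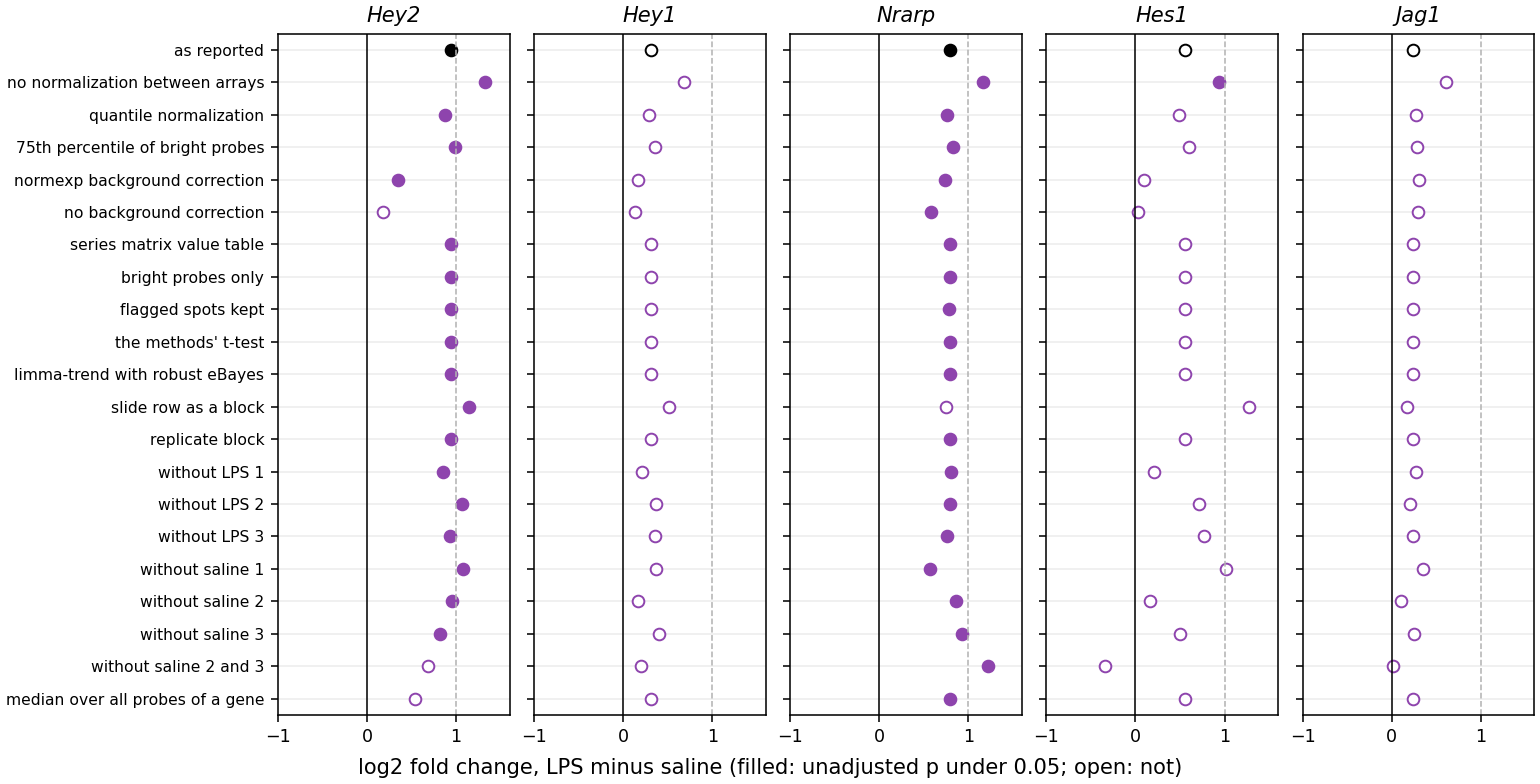
Log2 fold change (LPS minus saline, x axis) of Hey2, Hey1, Nrarp, Hes1 and Jag1 as reported (black) and under 20 other settings (purple), with filled symbols for an unadjusted p under 0.05; bright probes are those detected on all 6 arrays (for the percentile) or on every array of a treatment. Hey2 is positive throughout but falls to 0.18 with no background correction, Nrarp ranges from 0.57 to 1.21, and Hes1 is negative without saline replicates 2 and 3.

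No gene for the enzymes that modify and cut the receptors was called except Poglut1. In receptor glycosylation, Poglut1, which adds O-glucose to the extracellular repeats of Notch, was at -4.64, -4.76 and -3.72 after LPS and at -5.84, -5.27 and -5.37 after saline. It was detected on 2 LPS arrays and on no saline array, so that only a bound can be given. It was at least 1.05-fold higher after LPS, with mean levels of -4.37 and -5.49 and a limma adjusted p of 0.271. This bound sets the mean of the LPS arrays against the lowest signal that was well above background on each saline array, or the signal of the probe where that was higher. By the fitted differences, which are no bound, Poglut1 was no longer called without LPS replicate 3 (0.79) or without saline replicate 1 (0.94). Lfng, the Fringe enzyme that changes which ligand a receptor prefers, had the largest difference of this role among genes detected on every array of a treatment, 0.64 ± 0.52 (limma adjusted p = 0.686). In receptor cleavage, 3 of 7 measured genes were positive. The groups were apart with LPS lower for Furin, Ncstn and Psenen, beside 18.4% of all probes and 5.87% of those detected on all arrays. The Ncstn difference was only -0.09 (limma adjusted p = 0.917). On another Ncstn probe, also detected on all arrays, the groups overlapped and the difference was -0.04 (limma adjusted p = 0.984). Psenen, a gamma-secretase subunit, had the largest difference of these 7 genes at -0.27 ± 0.15 (limma adjusted p = 0.484). Dtx4, a ubiquitin ligase, led the 8 measured ubiquitination and endocytosis genes at 0.52 ± 0.25 (limma adjusted p = 0.365).

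In the nucleus, Rbpj itself was at -0.12, 0.08 and 0.48 after LPS and at -0.46, -0.41 and -0.02 after saline. LPS replicate 1 lay below saline replicate 3, so the groups overlapped. The difference was 0.45 ± 0.23 (limma adjusted p = 0.399), with an interval from -0.10 to 0.99. With the replicate number as a block the limma unadjusted p was 0.0298 (adjusted p = 0.207), still under 2-fold. Another Rbpj probe was detected on no array. Of the 8 measured corepressor genes, 6 had a negative difference. The largest was that of Hdac1, a histone deacetylase, at -0.33 ± 0.17 (limma adjusted p = 0.426), and its other 2 probes gave -0.23 and -0.29.

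Dlk1, a ligand-like protein known as an inhibitor of Notch and from adrenal and other endocrine precursors, had the largest difference of all measured pathway genes and the widest interval among them. It was at -0.31, 0.90 and -0.07 after LPS and at -0.30, 2.87 and 1.97 after saline. Saline replicates 2 and 3 were the highest arrays, and saline replicate 1 lay at the level of the LPS arrays. The difference was -1.34 ± 0.80 (limma unadjusted p = 0.139, adjusted p = 0.505). With the replicate number as a block the unadjusted p was 0.0379, past the criterion, and without saline replicate 1 it was 0.00307 at a difference of -2.25. Without saline replicates 2 and 3, which carry the high adrenal marker levels given above, it turned to 0.47. The part of the adrenal transcripts in the Dlk1 values was not tested.

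**Figure D4:**
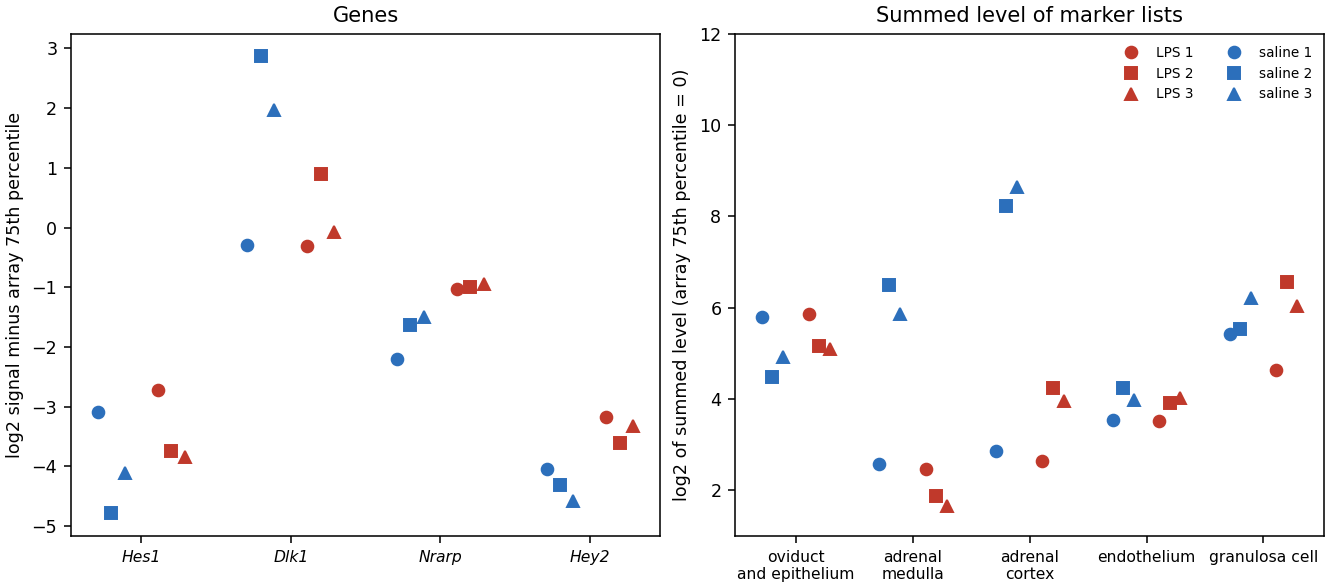
Left, levels of Hes1, Dlk1, Nrarp and Hey2 (log2 relative to the 75th percentile of the array); right, log2 of the summed level of 5 cell type marker lists, for 3 saline (blue) and 3 LPS (red) arrays with a symbol per replicate number. Saline replicates 2 and 3 are high for both adrenal lists and for Dlk1, and replicate 1 of both treatments is high for oviduct and epithelial markers and for Hes1.

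Whole ovaries hold several cell types, and fewer cells of a type cannot be told apart from less RNA per cell. Oocyte markers were positive in 10 of 10 measured genes with a median difference of 0.46, none of them called, and summed levels from 18.9 to 50.9 after LPS and from 21.7 to 36.4 after saline. The largest oocyte difference was that of Bmp15, an oocyte growth factor, at 0.75 ± 0.45 (limma adjusted p = 0.500). Granulosa cell markers were positive in 7 of 10 genes with a median of 0.27 and summed levels from 25.0 to 94.5 after LPS and from 43.0 to 74.2 after saline. Fshr, the receptor for follicle-stimulating hormone, led them at 0.98 ± 0.51 (limma adjusted p = 0.421). The summed granulosa level ranged more widely within the LPS arrays than within the saline arrays, and LPS replicate 1 had the lowest summed level of both lists. The part of cell composition in the Notch gene values was not tested.

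Endothelial markers were positive in 4 of 10 genes with a median of -0.12, and their summed levels overlapped, from 11.4 to 16.2 after LPS and from 11.7 to 18.8 after saline. Sox17 led them at 0.75 ± 0.75 (limma adjusted p = 0.788), and Tek was the only marker of any list that was detected on no array. Pericyte and smooth muscle markers were positive in 9 of 10 genes with a median of 0.36, with Lmod1 called higher though detected on no saline array, and Cnn1 led those detected on every array of a treatment at 0.77 ± 0.44 (limma adjusted p = 0.480). Their summed levels were 32.8 to 49.6 after LPS and 23.0 to 38.3 after saline. Stroma and theca markers were positive in 7 of 9 genes with a median of 0.25 and summed levels from 109 to 116 after LPS and from 87.4 to 163 after saline. Tcf21, a mesenchymal transcription factor, was called higher among them at 1.08 ± 0.24 (limma unadjusted p = 0.00308, adjusted p = 0.271). Col1a1 weighs most in the stroma and theca sum and was at 7.14 on saline replicate 1, the array with the highest sum. Its difference was -0.15 (limma adjusted p = 0.934), and another Col1a1 probe gave 0.03.

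Macrophage markers were positive in 7 of 10 genes with a median of 0.29. Their summed levels did not overlap, at 9.58 to 9.88 after LPS and 7.38 to 9.22 after saline. Such a separation was seen for 23.4% of all single probes. C1qb, Aif1 and C1qa weigh most in this sum, and the groups overlapped on each of them. The C1qa difference was -0.07. Mrc1, the mannose receptor, was called in this list and was at least 2.08-fold higher after LPS, with mean levels of -3.22 and -4.41, since it was detected on no saline array (limma adjusted p = 0.271). Of the oviduct and epithelial markers, 8 of 9 were positive with a median of 0.37, and Hoxa11 was called at least 1.73-fold higher, with mean levels of -3.66 and -6.10 (limma adjusted p = 0.271). Red blood cell markers were negative in 4 of 4 genes with a median of -1.01, with Slc4a1 called lower, and summed levels from 24.8 to 39.6 after LPS and from 38.7 to 59.2 after saline. Ahsp led them at -1.45 ± 0.63 (limma adjusted p = 0.313). Slc4a1 and Ahsp were highest on saline replicate 2, at 1.12 and 2.63, an array that also carries the adrenal transcripts. On saline replicates 1 and 3 Slc4a1 was at -0.47 and -0.43 and Ahsp at 0.34 and 0.37. The LPS arrays lay between -1.25 and -0.81 for Slc4a1 and between -0.60 and 0.08 for Ahsp. The adrenal medulla and cortex lists were negative in 9 of 9 genes each, with medians of -3.50 and -4.65, and 8 and 4 genes called lower, those of the cortex being Cyp11b1, Cyp11b2, Cyp21a1 and Mc2r. Slc18a1 led the medulla markers detected on every array of a treatment at -3.50 ± 1.33 (limma adjusted p = 0.283), and Cyp11a1 led those of the cortex at -5.20 ± 2.37 (limma adjusted p = 0.336). Both were high on saline replicates 2 and 3 alone.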

How the data were processed

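The authors deposited the intensity values of each array as written by Agilent Feature Extraction 10.5.1.1, and a table of all arrays with intensity values that carry no scaling between arrays. The submitters' processing notes name lumi. The 2-fold and p criterion is that of the study, which names analysis of variance for its data in general but no normalization or test for the arrays in particular. Here the log2 processed signal was scaled to the 75th percentile of each array, spots flagged as outliers were removed, spots of a probe were averaged, and probes needed 2 unflagged arrays per group. LPS and saline arrays were compared over 30367 probes by lmFit and eBayes of limma 3.58.1 (R 4.3.3), with Benjamini-Hochberg adjustment. Genes were named through RefSeq accessions, which named 17998 probes; coordinates of the GRCr8 table belong to the promoters alone. The brightest probe stands for a gene. Members, pathway and marker lists and their naming rule were chosen with earlier results of these data known. The rule names all members, called pathway genes, and per role or marker list the largest difference among genes detected on every array of a treatment. Furin, Ncstn, Mib1, Lmod1, Slc4a1, Hes2, Hes3, Hes5, Hes7, Heyl and the called adrenal cortex markers were named after their values were seen. So were Col1a1, Hbb, Zp3, C1qa, C1qb and Aif1. The procedure was tested on simulated data drawn independently for each probe and array, so the test does not cover the array differences described here. The number of arrays limits the precision. Arrays with the same replicate number deviated together across probes (correlations 0.298, 0.215 and 0.254 for numbers 1, 2 and 3). These correlations are the only basis of the pairing. Unlike numbers also gave positive values for LPS 2 with saline 3 (0.160) and LPS 3 with saline 2 (0.068), and negative values otherwise. Deviations were taken from the mean of each treatment, so the correlations are not independent of each other. In all, 20 alternatives were run. A gene of the pathway list is not reported here.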

Additional observations from a re-analysis of the deposited data

How the results depend on the processing

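Of 20 alternatives, none gave a member an adjusted p under 0.05 (over all probes 290 passed without saline replicate 1, 5 with a slide row block and 0 in the other fits on probes), and Hey2, Hey1, Jag1, Notch2 and Notch3 had a positive difference in each. Hey2 kept an unadjusted p under 0.05 in 17 and Nrarp in 19 of them. The count of member probes called by the 2-fold and unadjusted p criterion moved from 0 to 1 with no normalization between arrays and to 2 (Hey2 probes, 1 detected on no array) when slide row was a block, and ranged from 0 to 1 over the fits that left out an array (1 without LPS replicate 2 or saline replicate 1, Hey2 in each case). The count of member probes whose groups did not overlap, 3, ranged from 3 to 6 with an array left out (5 without LPS replicate 1, 6 without saline replicate 1) and was 6 without saline replicates 2 and 3. Among all probes that share was 23.4% and went to 43.4%, 40.9% and 55.4%. It fell to 13.7% with no normalization, where 3 member probes were apart, and to 10.9% with quantile normalization, 12.3% with normexp, 7.58% with no background correction and 11.9% with detected probes only, where 2 were. The count of other pathway genes called, 1, was 3 with no normalization, 2 with the replicate block and without saline replicates 2 and 3, and 0 with quantile normalization, normexp, no background correction, only detected probes, or a slide row block, with a range of 0 to 1 when an array was left out (0 without LPS replicate 3). Poglut1 lost its call, or was not fitted, in the settings that gave 0, and without saline replicate 1, where Dlk1 was called. The slide row block rests on LPS replicate 1 alone against the saline arrays, since row 1 holds no saline array. Without saline replicates 2 and 3 the saline arm is likewise 1 array. The replicate block changed no other call than that of Dlk1.

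Dll1 turned positive with no normalization (0.35), the percentile of detected probes (0.019), the slide row (0.11), without saline replicates 2 and 3 (0.53) or without LPS replicate 3 or saline replicate 2. Dll4 turned negative with quantile normalization (-0.027), normexp (-0.033), no background correction (-0.043), the median of its probes (-0.29), without saline replicates 2 and 3 (-0.13) or without LPS replicate 1 or saline replicate 2. Without saline replicates 2 and 3 Notch1 was -0.14, Hes1 -0.35 and Dlk1 0.47. Rbpj was -0.17 as the median of its probes, Dtx4 -0.0125 with no background correction and, with no normalization, Hdac1 0.048 and Psenen 0.11. Over the fits that left out an array, Dll1 ranged from -0.30 to 0.29 and Dll4 from -0.065 to 0.12. The cause of these changes was not tested. With no normalization the median over all probes moved from -0.04 to 0.34. The calls over all probes were 186 higher and 327 lower, and were 1003 and 227 with no normalization, 2 and 280 with normexp, 0 and 211 with no background correction, and 1489 and 66 with a slide row block. The study's general analysis of variance, with 2 groups the methods' t-test, called 100 and 48. Signals near background limit the pathway genes Hey2, Dll1, Hes1, Hes5, Poglut1, Mib1, Dtx4 and Lfng, none of which was detected on every saline array. The same holds for the markers Fshr, Sox17, Lmod1, Mrc1, Hoxa11 and Tek. Lfng was 0.061 with no background correction.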
